A study of Mus musculus with 2 samples.

Results

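Mt1, Mt2 and Mt3, the 3 metallothionein genes followed here, were picked by gene symbol out of the 32285 genes in the count matrices, and all 3 were found. They were chosen with results of these libraries in view, so their levels and ratios are given as descriptions without a test. The cells came from mouse retinas at postnatal day 6 that had been enriched with beads against CD31, an endothelial surface protein, and were profiled with 10x Genomics Chromium 3′ chemistry. Each genotype had 1 library: the control was Alk1f/f, and the knockout (Alk1 ECKO) was Alk1f/f Cdh5 CreERT2, in which an inducible Cre recombinase is driven by the endothelial gene Cdh5. Both thus carry the floxed Alk1 allele, and the control carries no Cre. Induction of the Cre and the number of animals behind each library were not given in the sources used here. With 1 library per genotype the differences have no replicate check, and a difference between the libraries cannot be told apart from a difference between the genotypes. All intervals cover counting error only.

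Metallothioneins are small cysteine-rich proteins that bind zinc and copper, buffer the free metal in a cell and scavenge oxidants. Transcription of Mt1 and Mt2 is driven by the zinc-sensing factor Mtf1 through metal response elements in their promoters, and is also raised by glucocorticoids and other stress signals, while Mt3 is known mainly from neural tissue and responds weakly to metals. In the retina metallothioneins are known from Müller glia, the radial glia that span the tissue and support its neurons.

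The members lie side by side on chromosome 8 (mm10, GENCODE vM21, all on the plus strand). Mt3 (ENSMUSG00000031760) spans 94152607 to 94154146, Mt2 (ENSMUSG00000031762) spans 94172664 to 94173568 and Mt1 (ENSMUSG00000031765) spans 94179082 to 94180327. The fourth gene of the cluster, Mt4, precedes them at 94137197 to 94139031. None of the 50-base stretches of the annotated transcripts of Mt1, Mt2 or Mt3 occurred in transcripts of another gene, so reads of that length separate the members from each other. The 250 bases before each RefSeq start (GRCm38.p6, plus strand, 5′ to 3′) are shown because Mt1 and Mt2 share a regulator by background knowledge. The windows taken differ in how often its core motif occurs. Capitals mark matches to the metal response element core, TGCACNC or TGCGCNC, on either strand. RefSeq starts Mt1 and Mt2 at other bases than GENCODE, so distances below are from the RefSeq start.
Mt1 (chr8:94178839-94179088): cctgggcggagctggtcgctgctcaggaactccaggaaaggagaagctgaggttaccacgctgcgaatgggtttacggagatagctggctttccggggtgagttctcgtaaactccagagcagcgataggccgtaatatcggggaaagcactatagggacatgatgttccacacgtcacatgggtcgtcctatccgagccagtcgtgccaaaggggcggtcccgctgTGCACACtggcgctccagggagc
Mt2 (chr8:94172368-94172617): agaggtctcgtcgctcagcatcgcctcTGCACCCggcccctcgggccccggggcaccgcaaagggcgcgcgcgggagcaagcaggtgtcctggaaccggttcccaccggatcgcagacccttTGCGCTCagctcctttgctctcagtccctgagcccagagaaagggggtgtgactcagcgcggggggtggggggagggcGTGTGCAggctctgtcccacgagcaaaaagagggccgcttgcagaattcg
Mt3 (chr8:94152357-94152606): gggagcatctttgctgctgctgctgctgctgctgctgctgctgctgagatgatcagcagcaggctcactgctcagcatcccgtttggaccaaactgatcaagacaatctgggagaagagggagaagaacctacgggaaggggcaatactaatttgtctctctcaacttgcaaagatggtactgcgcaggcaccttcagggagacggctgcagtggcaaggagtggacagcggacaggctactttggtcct

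In a window of 300 bases, which adds the 50 bases after the RefSeq start, Mt2 held 4 matches, at positions -223, -128, -50 and 5 from that start. Mt1 held 3 matches, at -23, 3 and 21. Mt3 held 1 match, at 28, and none in the sequence shown. Of 32851 RefSeq promoters of the same length, 25.7% held at least 1 match, 1.97% held at least 3 and 0.517% held at least 4. The antioxidant response element core TGACNNNGC matched once in Mt2, at -79, and is present in 12.4% of promoters. The hypoxia response element core ACGTG matched once in Mt1, on the minus strand at -79, and is present in 19.6% of promoters. TATAAA matched in the window of none of the 3 members and in 13.6% of promoters. These matches are letters in a window, not measured sites. Each window follows 1 RefSeq start per gene, whereas GENCODE annotates 3 transcripts for Mt1, 2 for Mt2 and 3 for Mt3. Windows at other starts were not counted, and elements near those starts, TATAAA included, would be missed. No difference between the promoters of the members, and no absence of an element, is read from these matches.

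The control library held 8739 barcodes with 54800465 UMIs (unique molecular identifiers, 1 per counted transcript molecule), and that of Alk1 ECKO held 5308 with 62728605 UMIs. Of these, 7444 and 4094 cells were kept, and 20 barcodes occurred in both libraries. Cells were clustered without Mt1, Mt2 and Mt3, and clusters were named by marker genes, so each class name means marker resemblance ("Müller-like" and so on) and the Müller class may hold late progenitors. The CD31-enriched suspensions were not purely endothelial: the endothelial class held 305 control and 1078 Alk1 ECKO cells, the Müller class 598 and 161, the mural class 11 and 150, and the microglial class 77 and 301. Transcripts of the targeted gene, Acvrl1 (Alk1), were at 113 CPM in the control and 115 CPM in Alk1 ECKO endothelial cells (log2 ratio 0.04, 95% interval -0.06 to 0.13). These are 3′ reads, and the deleted exons were not given in the sources used here, so this value does not check the genotype. Levels below are UMIs summed over the cells of a class, as counts per 1000000 UMIs of that class (CPM), with exact Poisson 95% intervals. Because each UMI stands for 1 molecule, no length correction enters them.

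Among the 9 classes Mt1 was most abundant in microglia and Müller glia, intermediate in mural cells and lowest in endothelial cells and photoreceptors. In control cells Mt1 stood at 755 CPM (interval 696 to 817) in microglia, 225 CPM (211 to 241) in the Müller class, 152 CPM (95.5 to 231) in the 11 mural cells, 44.4 CPM (36.2 to 53.9) in neurogenic precursors and 24.7 CPM (16.9 to 34.9) in amacrine cells. The remaining control classes lay at 5.66 CPM (bipolar), 5.13 CPM (endothelial), 3.01 CPM (cone) and 2.83 CPM (rod). Neighbouring intervals overlapped between the Müller and mural classes and among those 4 lowest classes, so their order is not resolved by counting.

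In Alk1 ECKO cells Mt1 stood at 831 CPM (801 to 863) in microglia, 623 CPM (572 to 677) in the Müller class, 275 CPM (255 to 297) in mural cells, 169 CPM (131 to 214) in neurogenic precursors, 133 CPM (81.3 to 206) in 22 amacrine cells and 76.4 CPM (60.2 to 95.7) in bipolar cells. Cones followed at 26.1 CPM (6 UMIs in 18 cells), rods at 10.8 CPM and endothelial cells at 6.72 CPM (5.91 to 7.61). The intervals of neurogenic precursors and amacrine cells overlapped, as did those of amacrine and bipolar cells and of rods with both cones and endothelial cells.

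**Figure D1:**
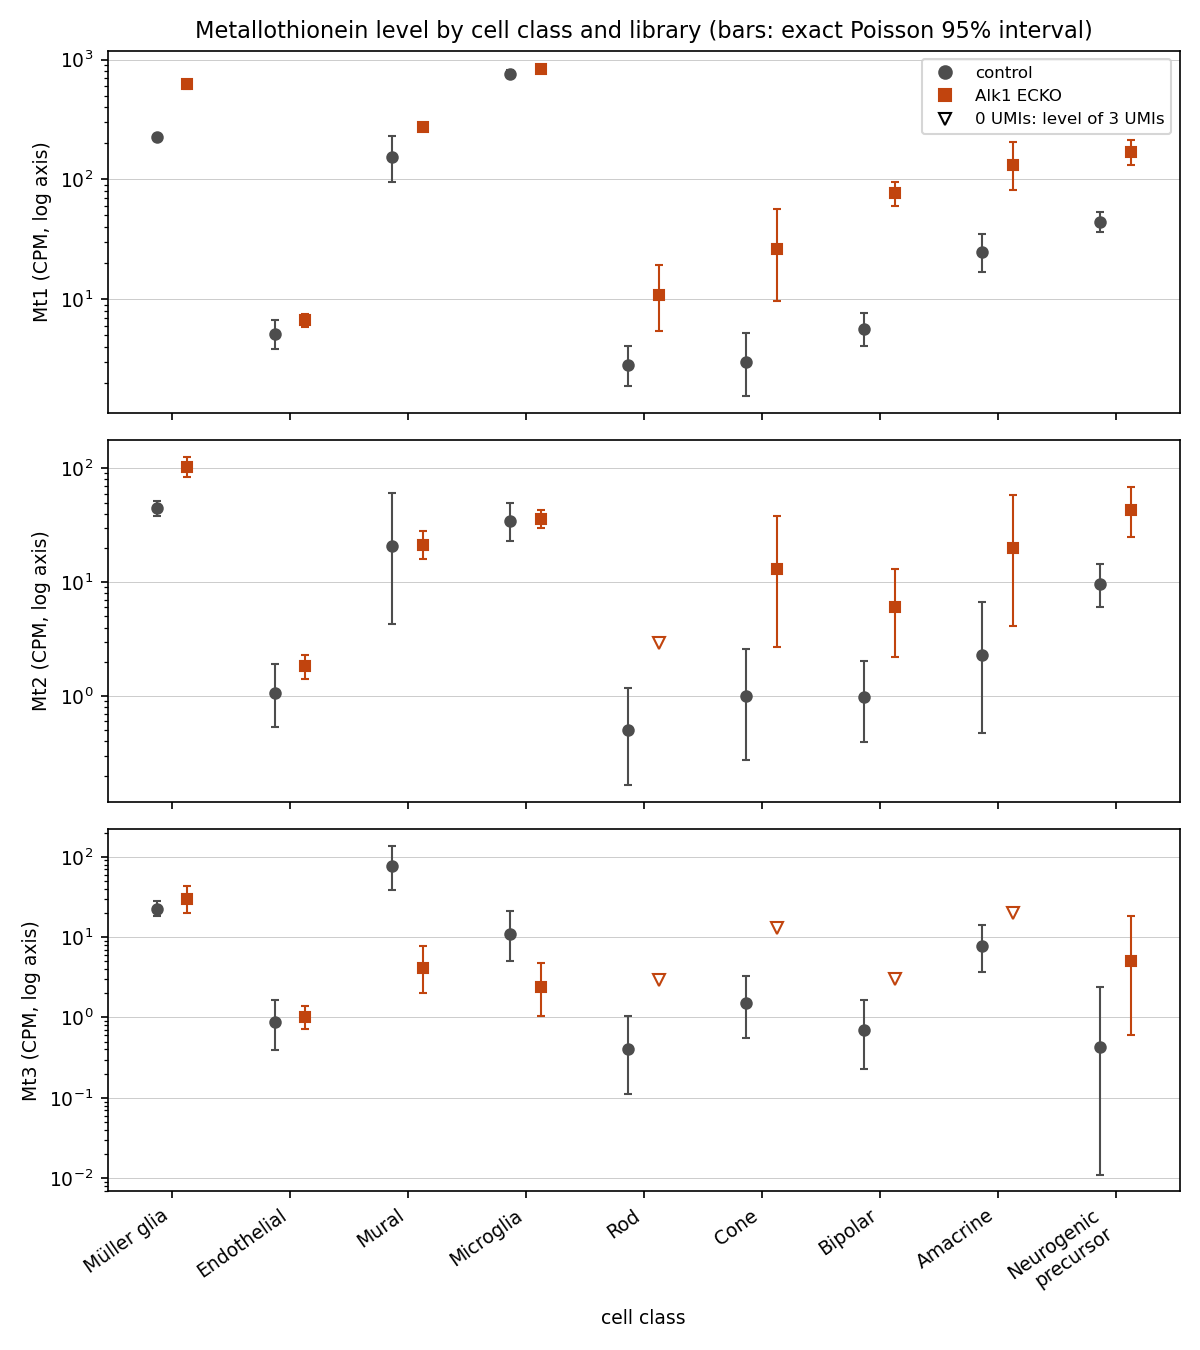
Level of Mt1, Mt2 and Mt3 in CPM (log axis) in 9 cell classes of the control (circles) and Alk1 ECKO (squares) libraries, with exact Poisson 95% intervals. Open triangles stand at the level of 3 UMIs where a class had 0. Mt1 in the Müller class lies at 225 CPM in the control and 623 CPM in Alk1 ECKO, while in microglia the libraries lie at 755 and 831 CPM.

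Mt2 followed another order, with the Müller class above microglia. Control Mt2 was 44.5 CPM (38.2 to 51.5) in the Müller class, 34.5 CPM (22.9 to 49.8) in microglia, 20.8 CPM (3 UMIs) in mural cells, 9.57 CPM (5.998 to 14.5) in neurogenic precursors and 1.07 CPM (11 UMIs) in endothelial cells. In Alk1 ECKO cells it was 103 CPM (83.5 to 127) in the Müller class, 42.8 CPM (24.9 to 68.5) in neurogenic precursors, 36.1 CPM (29.95 to 43.1) in microglia, 21.3 CPM (15.8 to 28.0) in mural cells and 1.82 CPM (1.41 to 2.31) in endothelial cells. The Müller and microglial intervals overlapped in control and did not overlap in Alk1 ECKO. Over all 4 neuronal classes together (rod, cone, bipolar and amacrine), Mt2 had 19 UMIs in 3915 control cells and 12 UMIs in 597 Alk1 ECKO cells.

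Mt3, the neural member, was the least abundant of the members in the Müller class, at 22.6 CPM (18.2 to 27.8) in the control and 30.03 CPM (19.8 to 43.7) in Alk1 ECKO. In control mural cells it reached 76.2 CPM, but this rests on 11 UMIs in 11 cells, of which 45.5% had a UMI, and in Alk1 ECKO mural cells it was 4.17 CPM (10 UMIs in 150 cells). Microglia held 9 Mt3 UMIs in control (11.1 CPM) and 8 in Alk1 ECKO (2.39 CPM). Neurons held 25 Mt3 UMIs in control (1.12 CPM) and 0 in Alk1 ECKO, where 3 UMIs would have been 1.25 CPM. Endothelial Mt3 was 0.87 CPM in the control and 1.02 CPM in Alk1 ECKO. Outside the Müller class Mt3 thus stood at counts too low for a ratio in most classes.

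The UMI ratio of Mt1 to Mt2 was higher in microglia than in the Müller class. In the Müller class there were 5.07 Mt1 UMIs per Mt2 UMI in control (interval 4.31 to 5.98) and 6.02 in Alk1 ECKO (4.83 to 7.58). In microglia there were 21.9 in control (14.996 to 33.2) and 23.0 in Alk1 ECKO (19.2 to 27.9). Mural cells were at 7.33 in control (2.20 to 38.3) and 12.9 in Alk1 ECKO (9.73 to 17.6). Endothelial cells were at 4.82 (2.49 to 10.2) and 3.69 (2.81 to 4.90), and neurogenic precursors at 4.64 (2.90 to 7.72) and 3.94 (2.29 to 7.16). Bipolar cells were at 5.71 (2.53 to 15.1) and 12.7 (5.56 to 35.6), and the 4 neuronal classes together at 5.89 (3.60 to 10.2) and 9.42 (5.18 to 18.8). In each of these classes the intervals of the libraries overlapped. The microglial intervals did not overlap those of the Müller class in either library. Mt1 per Mt3 in the Müller class was 9.97 (8.03 to 12.5) in control and 20.7 (14.1 to 31.8) in Alk1 ECKO, intervals that did not overlap.

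Between the libraries, Mt1 and Mt2 were higher in Alk1 ECKO Müller cells and Mt3 was not resolved. The log2 ratio of Alk1 ECKO over control was 1.47 for Mt1 (exact conditional 95% interval 1.31 to 1.62, a 2.76-fold difference), 1.22 for Mt2 (0.84 to 1.59) and 0.41 for Mt3 (-0.27 to 1.04). Of the 9846 genes measured in this class (at least 30 UMIs over both libraries), 3.53% were higher by at least 1.5-fold and 21.2% lower, with a median log2 ratio of -0.17. Thus 2 of the 3 members were past 1.5-fold, 7 genes had a higher ratio than Mt1 and 23 a higher ratio than Mt2. The members were chosen with such values known, so nothing is read from their rank. Set relative to that median, the ratios were 1.63 for Mt1 and 1.38 for Mt2, and on that scale 8% of genes were higher and 14.3% lower by 1.5-fold.

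In microglia, the class with the most Mt1, the libraries were nearly level. The log2 ratio was 0.14 for Mt1 (0.01 to 0.27) and 0.07 for Mt2 (-0.54 to 0.71), with a median of -0.15 over 7937 genes, of which 7.28% were higher by 1.5-fold. Neither member passed 1.5-fold. The Mt1 interval of microglia did not overlap that of the Müller class. No test of that difference was possible with 1 library per genotype.

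In mural cells, the contractile cells around capillaries and arterioles, the Mt1 log2 ratio was 0.85 (0.24 to 1.54) and that of Mt2 0.03 (-1.60 to 2.36). With 11 control cells, 25.4% of the 7416 measured genes were higher and 21.1% lower by 1.5-fold, so the Mt1 value lies inside the range of that comparison (5th to 95th percentile -1.28 to 2.10).

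**Figure D2:**
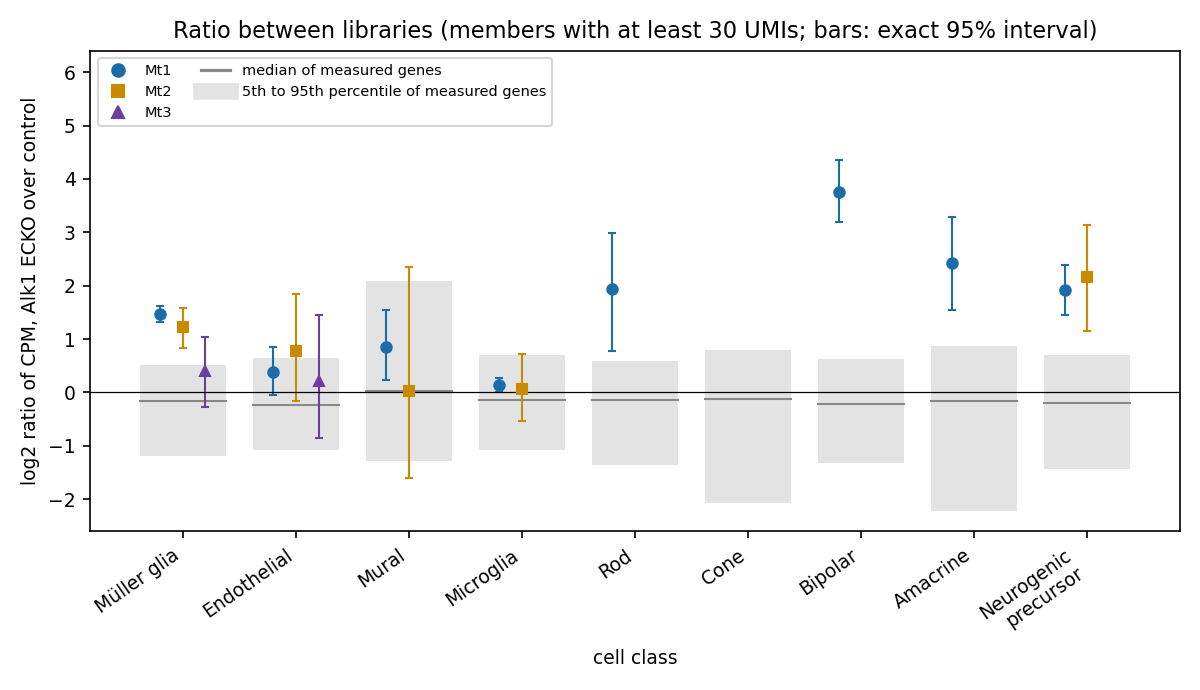
Log2 ratio of CPM, Alk1 ECKO over control, for members with at least 30 UMIs over both libraries (points, exact 95% intervals) in 9 classes. Grey boxes span the 5th to 95th percentile of all measured genes and the grey line is their median. The Mt1 point of the Müller class (1.47) lies above its box, and those of microglia (0.14) and endothelial cells (0.39) lie inside theirs.

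The named endothelial class, the cell type in which Alk1 was targeted, held little metallothionein RNA in either library. Mt1 had 53 UMIs among 10323531 control UMIs and 251 among 37348328 Alk1 ECKO UMIs, a log2 ratio of 0.39 (-0.04 to 0.84). Mt2 had a ratio of 0.77 (-0.16 to 1.84) and Mt3 of 0.22 (-0.85 to 1.46), and all 3 intervals included 0. Of 12444 genes, 5.76% were higher and 22.0% lower by 1.5-fold, with a median of -0.23 (11% and 10.9% relative to that median). The class leaves out a cluster of 1223 Alk1 ECKO and 3 control cells led by haemoglobin and endothelial genes (Hbb-bs, Gpihbp1, Ramp2 and Emcn), which stayed unnamed for its low mitochondrial share (median 0.404%) and had a median of 1856 UMIs. Mt1 there was 211 CPM (196 to 228) in Alk1 ECKO and 3 UMIs in the control cells. With that cluster kept in the class the Mt1 ratio was 2.08, and with the 2 other unnamed clusters led by endothelial genes added instead it was 1.43. The ratio was 2.43 after thinning, which left very few control cells with an Mt1 UMI. It was -0.26 at a Leiden resolution of 2.0 and -0.74 when sub-clusters were given the same weight in both libraries. That last value covers only the 6 endothelial sub-clusters with enough cells in both libraries. It leaves out those with few control cells, such as the one led by Angpt2 and Esm1. No direction is read for the endothelial Mt1 ratio.

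Shares of cells were compared after each cell was thinned to 2000 UMIs, since endothelial cells were sequenced deepest (medians of 19370 and 21332 UMIs) and rods least (2737 and 2209). Rods, among the classes with the least Mt1, serve as the comparison: 0.41% of 1970 control rods and 2.14% of 234 Alk1 ECKO rods kept an Mt1 UMI. Endothelial cells stood at 0.34% of 297 control and 1.62% of 990 Alk1 ECKO cells (unthinned 6.23% and 8.35%). These thinned shares were below those of the rods of the same library but rest on few cells. In CPM, control endothelial Mt1 (5.13) lay above that of control rods (2.83). The thinned endothelial shares are thus read neither as expression nor as an order against rods. Among Müller cells 28.9% of 595 control cells (Clopper-Pearson interval 25.3 to 32.7) and 54.1% of 157 Alk1 ECKO cells (46.0 to 62.1) kept an Mt1 UMI (unthinned 55.7% and 77.0%). Among microglia the shares were 69.1% of 68 control cells (56.7 to 79.8) and 66.0% of 247 Alk1 ECKO cells (59.7 to 71.9).

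The Müller difference lay in the number of positive cells and in the number of UMIs per cell. Cells with 4 or more Mt1 UMIs after thinning were 2.35% of the control and 14.0% of the Alk1 ECKO Müller cells, and cells with 0 were 71.1% and 45.9%. In microglia, cells with 4 or more were 11.8% and 12.6%. Before thinning, the 10% of Müller cells with the most Mt1 held 50.5% of its UMIs in control and 41.6% in Alk1 ECKO, with at most 18 and 39 UMIs in a cell.

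**Figure D3:**
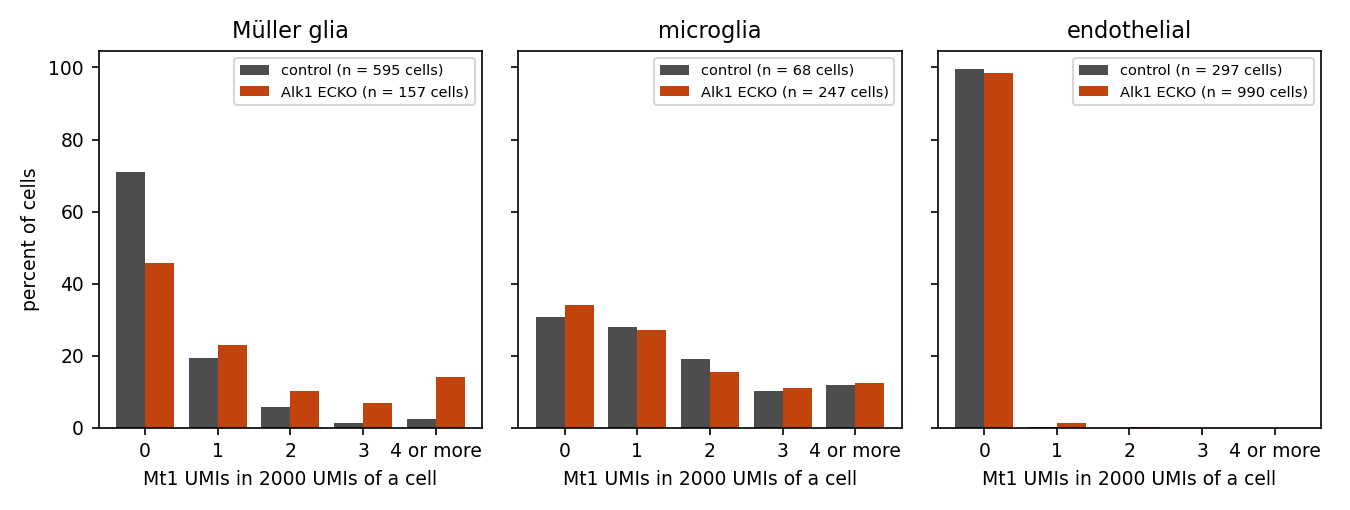
Percent of cells by number of Mt1 UMIs left after each cell was thinned to 2000 UMIs, in the Müller, microglial and endothelial classes of the control (grey) and Alk1 ECKO (orange) libraries. Müller cells with 0 Mt1 UMIs are 71.1% in control and 45.9% in Alk1 ECKO, while the microglial bars of both libraries are of similar height and nearly all endothelial cells have 0.

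Within Müller cells Mt1 and Mt2 counts rose together weakly, and in control cells those of Mt3 were related to neither. Over 595 thinned control cells Pearson's r of the log counts was 0.25 for Mt1 with Mt2, 0.02 for Mt1 with Mt3 and 0.00 for Mt2 with Mt3. Over 157 Alk1 ECKO cells it was 0.36 for Mt1 with Mt2. Control cells with an Mt2 UMI had a mean of 1.25 Mt1 UMIs, against 0.38 in cells without one, and the Alk1 ECKO means were 3.09 and 1.16. The counts are sparse, and cells of a library share its processing, so these values describe the libraries only.

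The Müller class fell into 7 sub-clusters, made without the members, and Mt1 was higher in the Alk1 ECKO library in 7 of 7, with an interval above 0 in 6. The sub-clusters come from the same 2 libraries and are not separate checks. All genes were not counted per sub-cluster. Over the whole class 3.53% of measured genes were higher by 1.5-fold. Sub-clusters 0 and 2 held only 8 and 12 Alk1 ECKO cells. Sub-cluster 1, led by Vcam1 and Aldoc, had Mt1 at 212 CPM in 143 control cells and 410 CPM in 35 Alk1 ECKO cells (log2 ratio 0.96, 0.60 to 1.30). Sub-cluster 3, led by the neurogenic genes Gadd45g, Mybl1 and Otx2, had 171 CPM in 65 control cells and 467 CPM in 20 Alk1 ECKO cells (1.45, 0.93 to 1.96). Sub-cluster 2, led by the mitotic genes Cenpf and Cenpe, had 234 and 600 CPM (1.36, 0.75 to 1.92). The exception was sub-cluster 5, led by the replication genes Hells and Atad2, at 292 and 496 CPM with 6 Alk1 ECKO cells (0.76, -0.11 to 1.54).

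Sub-cluster 4 had the highest Mt1 value of the 7 in both libraries, an order that counting does not fully resolve. Its interval overlapped that of sub-cluster 5 in control and those of sub-clusters 0, 2 and 5 in Alk1 ECKO. It was led, besides Mt1 itself, by Anxa2, Slc16a3 (a lactate exporter), Cox4i2 and Ndufa4l2 (subunits of the respiratory chain linked to low oxygen). It held 12 control cells, 2.01% of the class, and 71 Alk1 ECKO cells, 44.1% of the class. Mt1 was 419 CPM (278 to 606) in the control and 888 CPM (791 to 994) in Alk1 ECKO there, a log2 ratio of 1.08 (0.52 to 1.70). Without this sub-cluster the Mt1 ratio of the Müller class was 1.05 instead of 1.47, and when each sub-cluster was weighted alike in the libraries it was 1.12. The mural marker list, which holds Ndufa4l2, summed to 1497 CPM in its control cells (3 of 15 markers detected) and 2037 CPM in its Alk1 ECKO cells (7 of 15), of which Ndufa4l2 made up 1377 and 1802 CPM. The defining mural marker Rgs5 had 0 and 1 UMIs there, and the microglial Cx3cr1 had 0 in either library. The microglial list as a whole was at 0 in its control cells and at 52.8 CPM in its Alk1 ECKO cells (18 UMIs, 10 of 16 markers detected), against 17.9 and 21.5 CPM in the other Müller cells and 42310 CPM in Alk1 ECKO microglia. The part of these transcripts in the Mt1 value was not tested. Mt2 was higher in Alk1 ECKO in 7 of 7 sub-clusters, with an interval above 0 in 3, and its ratio without sub-cluster 4 was 0.88. As for Mt1, this count has no count over all genes beside it. Mt3 had its highest control levels in sub-clusters 6 (55.4 CPM, 15 UMIs) and 1 (41.4 CPM, 46 UMIs), the latter being the source of 46 of its 91 control UMIs, and stood at 27.8 and 32.5 CPM there in Alk1 ECKO.

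**Figure D4:**
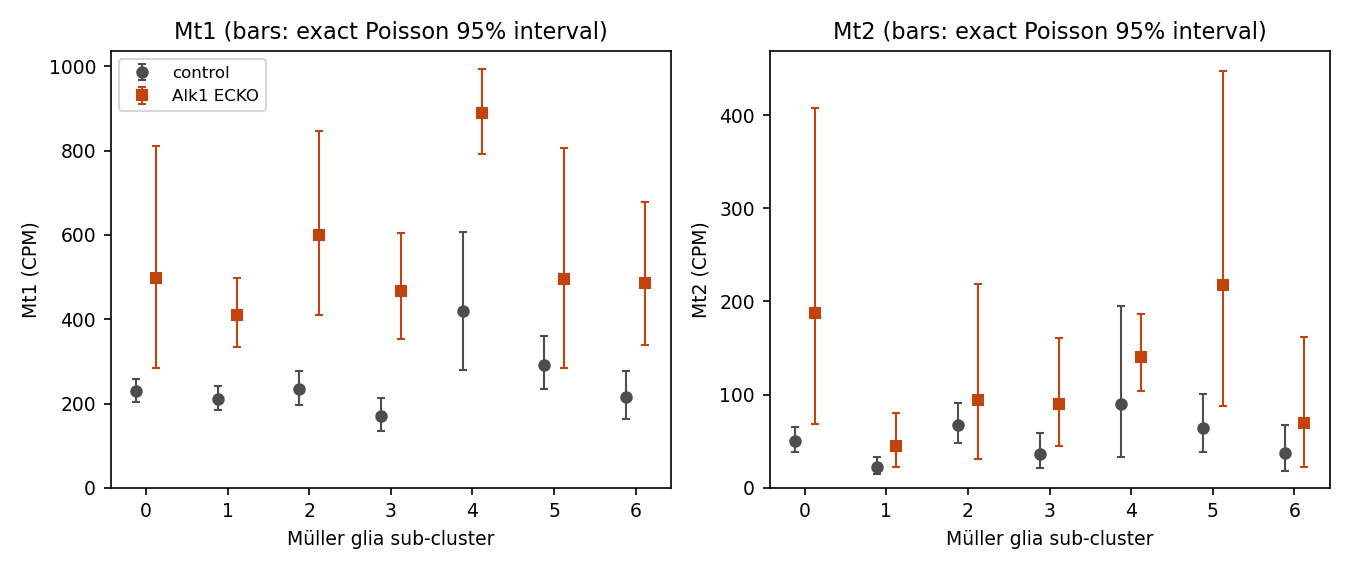
Level of Mt1 and Mt2 in CPM (exact Poisson 95% intervals) in the 7 sub-clusters of the Müller class, control (circles) and Alk1 ECKO (squares). Mt1 is higher in Alk1 ECKO in all 7 sub-clusters, and sub-cluster 4 has the highest Mt1 value in both libraries, 419 and 888 CPM, with intervals that overlap those of 1 and 3 other sub-clusters.

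A small set of cells with part of the astrocyte marker list carried more Mt1 and Mt3 than the Müller class. It was found by splitting an unnamed cluster once more, a step added after the cluster had been seen, and its leading genes held 5 of the 8 astrocyte markers (Gfap, Pdgfra, S100b, Aldoc and Igfbp5). Of the other 3 markers, Pax2 was at 239 CPM in the control and 203 CPM in Alk1 ECKO, and Aqp4 and Fgfr3 were at 0 in both libraries. Mt1 in these astrocyte-like cells was 550 CPM (459 to 654) in 22 control cells and 1414 CPM (1240 to 1606) in 17 Alk1 ECKO cells, a log2 ratio of 1.36 (1.05 to 1.68). Mt3 was 252 CPM (192 to 325) in the control and 406 CPM (315 to 514) in Alk1 ECKO, a ratio of 0.69 (0.16 to 1.22). Mt2 was 85.3 CPM and 149 CPM (0.81, -0.10 to 1.73). The Mt1 and Mt3 intervals did not overlap those of the Müller class in either library, and the Mt2 intervals overlapped in Alk1 ECKO.

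Neurons had low Mt1 in control and more in Alk1 ECKO, and most of the bipolar UMIs lay in 1 cluster. Over the 4 neuronal classes together Mt1 had 112 UMIs in 3915 control cells (5.04 CPM) and 113 UMIs in 597 Alk1 ECKO cells (47.3 CPM), a log2 ratio of 3.23 (2.84 to 3.62), beside 6.21% of genes higher by 1.5-fold. In rods the ratio was 1.93 (0.78 to 2.98), from 28 and 11 UMIs (5.03% of measured genes were higher by 1.5-fold). In amacrine cells it was 2.43 (1.55 to 3.28), from 32 and 20 UMIs (12.3% of genes higher). In bipolar cells it was 3.76 (3.18 to 4.35), from 40 and 76 UMIs, and none of 10725 measured genes had a higher ratio (5.71% were higher by 1.5-fold). Because the members were chosen with such values known, nothing is read from that rank either. Of the Alk1 ECKO bipolar Mt1 UMIs, 84.2% lay in cluster 9, led by Vxn, Rnf182 and Mybl1. Vxn and Mybl1 also led the cluster of neurogenic precursors. In cluster 9 Mt1 was 10.4 CPM in 373 control cells and 135 CPM in 95 Alk1 ECKO cells. Without cluster 9 the bipolar level was 3.89 CPM in the control and 23.1 CPM in Alk1 ECKO (20 and 12 UMIs, log2 ratio 2.57, 1.40 to 3.67). The bipolar ratio was 1.23 when no doublets were removed, and between 2.63 and 2.96 at Leiden resolutions of 0.5 and 2.0, with the members among the clustering genes, and in cells with at least 2000 UMIs. The amacrine ratio was 0.97 in cells with at least 2000 UMIs.

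Neurogenic precursors, cells leaving the cycle to become neurons, had both Mt1 and Mt2 higher in Alk1 ECKO. Mt1 was 44.4 CPM in 513 control cells and 169 CPM in 92 Alk1 ECKO cells (log2 ratio 1.92, 1.46 to 2.38). Mt2 was 9.57 and 42.8 CPM (2.16, 1.16 to 3.14), and 7.91% of 8042 genes were higher by 1.5-fold. The thinned share with an Mt1 UMI was 6.31% of 491 control and 25% of 84 Alk1 ECKO cells.

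Transcripts of glia that reach other droplets as free RNA were measured beside these values. In Alk1 ECKO rods Mt1 stood at 1.74% of its Müller level, and the Müller transcripts Rlbp1 and Slc1a3, which encode a retinoid-binding protein and a glutamate transporter, stood at 1.17% and 1.25% of theirs. In control rods Mt1 was at 1.26%, Rlbp1 at 0.63% and Slc1a3 at 1.64%. The microglial transcript C1qa was at 2.83 CPM (28 UMIs) in control rods and 11.8 CPM (12 UMIs) in Alk1 ECKO rods. Cx3cr1, also microglial, was at 1.72 CPM (17 UMIs) in control rods and had 0 UMIs in Alk1 ECKO rods. In endothelial cells Mt1 stood at 2.28% of its Müller level in control and 1.08% in Alk1 ECKO, against 0.21% and 0.03% for Rlbp1 and 0.17% and 0.05% for Slc1a3. In Alk1 ECKO bipolar cells Mt1 stood at 12.3% of its Müller level, against 0.09% for Rlbp1 and 0.47% for Slc1a3, and the microglial transcript Cx3cr1 stood at 0.19% of its microglial level. In control bipolar cells Mt1 was at 2.51%, Rlbp1 at 0.32% and Slc1a3 at 0.82%. In neurogenic precursors Mt1 was at 19.7% and 27.1% in control and Alk1 ECKO, with Rlbp1 at 5.95% and 3.42% and Slc1a3 at 6.96% and 6.402%. In the Müller class itself Cx3cr1 stood at 0.04% of its microglial level in control and 0.07% in Alk1 ECKO. The part of free RNA in the Mt1 levels of any class was not tested.

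**Figure D5:**
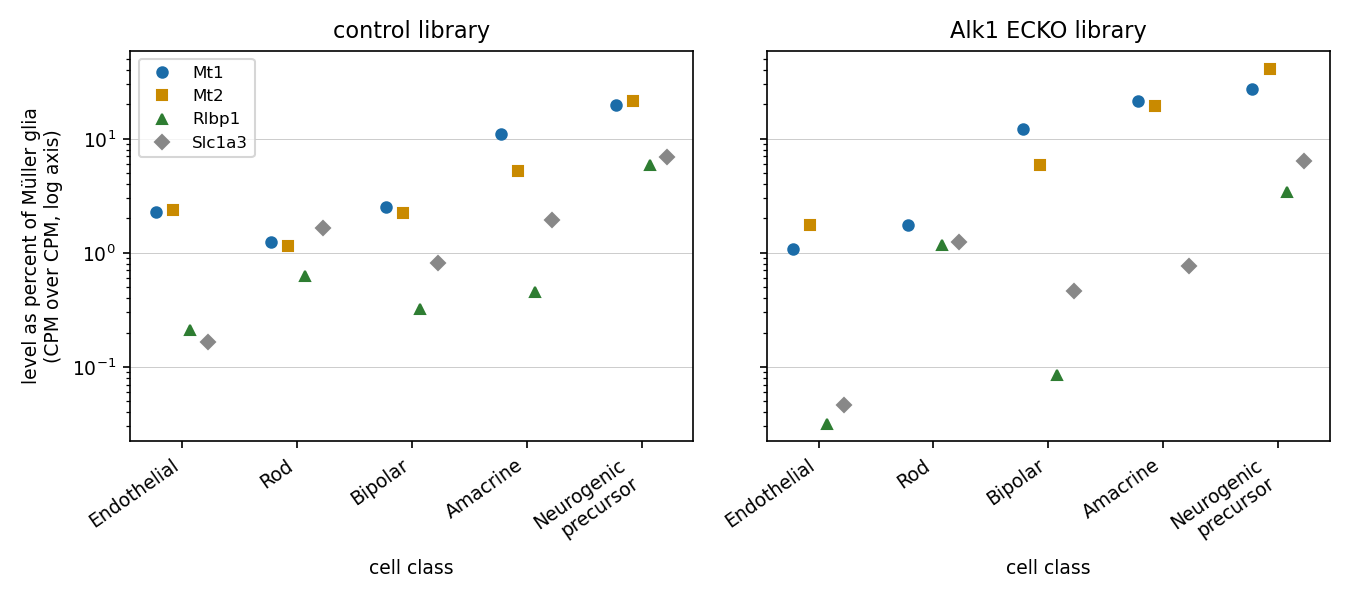
Level in 5 classes as percent of the Müller level of the same library (log axis) for Mt1, Mt2 and the Müller transcripts Rlbp1 and Slc1a3; genes at 0 UMIs are not drawn. In the Alk1 ECKO library Mt1 in bipolar cells lies at 12.3%, well above Rlbp1 (0.09%) and Slc1a3 (0.47%), while in rods the drawn genes lie between 1.17% and 1.74%.

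The other genes of metal handling gave counts near those of all measured genes. The 33 listed genes are mainly for zinc and copper transport and sensing, and also include Mt4, Sod1 and Slc11a2. In the Müller class 24 were measured, and 0 were higher and 6 lower by 1.5-fold, beside 3.53% and 21.2% of all measured genes (median log2 ratio -0.15, against -0.17 for all genes). Of the 6, 0 had an interval beyond 1.5-fold, as 1.24% of all measured genes did in that direction. Relative to the median of all genes 1 was higher and 5 were lower. In endothelial cells 26 were measured, 0 higher and 4 lower, beside 5.76% and 22.0% of all measured genes. The 2 with an interval past 1.5-fold, as 7.43% of all genes had in that direction, were the zinc importers Slc39a8 (248 CPM in the control and 130 CPM in Alk1 ECKO, a log2 ratio of -0.94, -1.01 to -0.87) and Slc39a10 (345 and 163 CPM, -1.08, -1.14 to -1.02).

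Lists of signals known to raise metallothioneins were counted the same way in the Müller class, beside 3.53% of all measured genes higher and 21.2% lower. With 6 to 15 genes in a list, these shares amount to few genes, and nothing is read from the counts. Of the oxidative stress genes 14 were measured, and 0 were higher and 0 lower (median 0.10; 3 higher relative to the median of all genes). Of the glucocorticoid genes 8 were measured, 0 higher and 1 lower (median -0.07). Of the heat shock genes 6 were measured, 0 higher and 1 lower (median -0.45). Of the gliosis genes 10 were measured, 1 higher and 1 lower (median 0.17). Of the immediate early genes 15 were measured, 2 higher and 1 lower (median -0.15), and Fos, one of the 2, was at 2010 CPM in the control and 3131 CPM in Alk1 ECKO (0.64, 0.58 to 0.70).

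More of the hypoxia list was higher by 1.5-fold, beside 3.53% of all measured genes higher and 21.2% lower. This list too is short and was chosen with earlier results of these data known, so its counts are a description. Its relation to the members was not tested. Of its 16 measured genes 7 were higher and 1 lower (median 0.51), and relative to the median of all genes 10 were higher and 1 lower. Ankrd37 was at 26.6 CPM in the control and 69.0 CPM in Alk1 ECKO Müller cells (log2 ratio 1.37, 0.90 to 1.84). Bnip3, a mitophagy receptor, was at 111 and 219 CPM (0.98, 0.73 to 1.22). The glucose transporter Slc2a1 was at 228 and 394 CPM (0.79, 0.61 to 0.97), and the glycolytic enzyme Aldoa at 609 and 1046 CPM (0.78, 0.67 to 0.89). The summed level of the 18 hypoxia genes was higher in Alk1 ECKO in each of the 7 Müller sub-clusters, and was 5238 and 7749 CPM in sub-cluster 4. In control, sub-cluster 1 was at 5564 CPM, and Mt1 was 212 CPM there and 419 CPM in sub-cluster 4, which held 12 control cells. The summed levels carry no interval, so nothing is read from their order. In Alk1 ECKO, sub-clusters 1 and 6 were at 7136 and 7427 CPM. Mt1 there was 410 and 487 CPM, beside 888 CPM in sub-cluster 4. In the astrocyte-like cells the summed hypoxia level was 4302 CPM in the control and 4337 CPM in Alk1 ECKO. In endothelial cells 5 of 18 hypoxia genes were higher and 2 lower (median 0.21), beside 5.76% and 22.0% of all measured genes. In bipolar cells 9 of 15 were higher and 0 lower (median 0.85), beside 5.71% and 24.8% of all measured genes.

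Genes with the pattern most like each member were ranked by Pearson's r of log2(CPM + 10) over 15 class-by-library profiles with at least 50 cells, among 7116 genes. For Mt1 they were Itgb5 (r = 0.93), Mt2 (0.92), Stx8 (0.89), Fos (0.89) and Egr2 (0.88). For Mt2 they were Mt1 (0.92), Egr3 (0.91), Fos (0.90), Cops9 (0.90) and Egr2 (0.90). For Mt3 they were Etv5 (0.90), Dtx4 (0.89), Col23a1 (0.88), Sbspon (0.87) and Fbxo2 (0.87). Between the members r was 0.92 for Mt1 with Mt2, 0.80 for Mt2 with Mt3 and 0.64 for Mt1 with Mt3. Itgb5, an integrin subunit, shared with Mt1 its highest level in microglia (275 CPM in the control and 370 CPM in Alk1 ECKO) and a lower one in the Müller class (102 and 108 CPM), but did not share the difference between Müller libraries. The profiles come from 2 libraries, and with the 8 control profiles alone only 1, 2 and 1 of the 5 genes of Mt1, Mt2 and Mt3 were named again.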

How the data were processed

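The deposited values are raw UMI counts of each gene in each barcode. Per the file headers Cell Ranger 5.0.1 wrote them, whereas Cell Ranger 6.1.1, FastQC 0.11.9 and mm10 stand in the submitters' processing notes. Cells were kept from 1000 UMIs and 500 genes up to 10% mitochondrial UMIs. Scrublet's automatic threshold called 0 and 1 cells, so the highest scores were removed instead (465 control, 143 Alk1 ECKO cells), a choice made after that failure. Both libraries were clustered together without the members and without batch correction (scanpy 1.11.5, leidenalg 0.10.2, 3000 variable genes, 30 components, 15 neighbours, resolution 1). A cluster took the name of the list with the most markers among its top 20 genes, at least 3. Clusters with a median mitochondrial share under 1% or a median doublet score over 0.12 stayed unnamed. The naming rules date from after the clusters were seen. Sub-clusters used a resolution of 0.6.

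The members and the 7 gene lists were chosen with earlier results of these data known. Genes named are the members, the 5 genes most like each, and list genes with an interval past 1.5-fold in the Müller or endothelial class. Fos, Itgb5's levels and the cluster 9, astrocyte-like and sub-cluster values were singled out after their values were seen. A floor of 3 counts stands for 0. The ratio and its interval were run on simulated Poisson counts. Those counts leave out the uneven spread of UMIs over cells, so the run cannot show that the intervals cover it. Promoters are from RefSeq, where all 3 members matched. No protein sequences were used here.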

Additional observations from a re-analysis of the deposited data

Results flagged for a closer look

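Cells that the labels and markers put in no class also carried members above the control level, in clusters with at least 20 cells per library. The unnamed cluster led by Igf2 and replication histones, from which the astrocyte-like cells were split, had 1204 CPM of Mt1 in 23 Alk1 ECKO cells against 272 CPM in 128 control cells. Mt2 was at 167 CPM against 74.6 CPM there, and Mt3 at 324 CPM against 64.9 CPM. The astrocyte-like cells were 73.9% of this cluster in Alk1 ECKO and 17.2% in control, so the whole-cluster values mix a difference in makeup with differences within its parts. Another part, sub-cluster 1, had Mt1 at 231 CPM in 44 control cells and 92.4 CPM in 5 Alk1 ECKO cells. With 3 Alk1 ECKO UMIs its log2 ratio was -1.32 (-3.64 to 0.28). Sub-cluster 0 had 165 CPM in 62 control cells and 1298 CPM in 1 Alk1 ECKO cell. A cluster led by Nhlh2 and Prdm13 had 69.1 CPM of Mt1 in 20 Alk1 ECKO cells (9 UMIs) against 16.8 CPM in 235 control cells, and no Mt2 or Mt3 UMI in either library.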

How the results depend on the processing

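The 17 ratios of members with at least 30 UMIs over both libraries in a class were recomputed under up to 13 alternatives, and 155 of 192 values stayed inside the counting interval. Of these 17, none whose interval excluded 0 changed direction. The sub-cluster, cluster 9 and astrocyte-like ratios were not recomputed. In the Müller class Mt1 came to 1.63 relative to the median of all genes, 1.65 after thinning, 1.05 without sub-cluster 4 and 1.12 with sub-clusters weighted alike in both libraries, and Mt2 to 0.81 after thinning. Mt1 in mural cells came to 1.56 after thinning. Mt1 in microglia came to 0.29 relative to the median, 0.0065 after thinning, 0.28 at resolution 2.0 and 0.29 without doublet removal. Endothelial Mt1 came to 1.22 as a mean of per-cell CPM, 2.43 after thinning (very few control cells kept an Mt1 UMI), 1.35 without cycling cells, 2.08 with low-mitochondrial clusters kept, -0.26 at resolution 2.0, 0.94 when the members entered the clustering, 1.43 with 2 unnamed clusters added and -0.74 with sub-clusters weighted alike. Neuronal Mt1 came to 2.41 at resolution 0.5, 2.53 at resolution 2.0, 2.60 when the members entered the clustering, 2.51 in cells with at least 2000 UMIs, 2.51 without doublet removal and 2.67 with clusters weighted alike. The cause was not tested. At resolution 0.5 and without doublet removal no cluster took the endothelial name, and without doublet removal none took that of neurogenic precursors, so those values are missing. Leaving out a sub-cluster, adding unnamed clusters and the common weights were chosen after seeing the data. The common weights cover only parts with enough cells in both libraries: 7 Müller and 6 endothelial sub-clusters and 9 clusters of neurons. For endothelial cells this is part of the class. Of 84 recomputed list counts 31 moved by over 1.5 times or to or from 0, and of 51 thinned shares 22 left their interval at 1000 UMIs. No paired analysis was possible because each group has 1 library. Low counts limit Mt2 and Mt3 outside the glia, with under 30 UMIs over both libraries in each of the rod, cone, bipolar and amacrine classes.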

Other observations

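Other unnamed clusters were in no named class. In the low-mitochondrial cluster led by Hbb-bs and Gpihbp1 (1223 Alk1 ECKO cells), Mt2 was 10.8 CPM and Mt3 12.1 CPM. The cluster led by Sparcl1, Apod and Prnd (93 Alk1 ECKO and 2 control cells) had 51.7 CPM of Mt1, and the one led by Aqp1 and Ltbp4 (193 and 7 cells) had 13.5 CPM. Among endothelial sub-clusters, the one led by the tip cell genes Angpt2 and Esm1 (178 Alk1 ECKO and 2 control cells) had 11.4 CPM of Mt1, and the one led by Apod and Htra3 (232 Alk1 ECKO cells) had 1.29 CPM. The 12 control cells with retinal pigment epithelium markers had 862 CPM of Mt1 and 470 CPM of Mt3.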
